A study of Mus musculus with 146 samples.

Results

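Nuclear respiratory genes encode most subunits of the 5 complexes that carry out oxidative phosphorylation in the inner mitochondrial membrane. Their transcripts were examined in single germ cells of the newborn mouse ovary. Genes were taken by symbol: every gene whose name begins with Nduf, Uqcr, Cox4, Cox5, Cox6, Cox7, Cox8 or Atp5, and Sdha, Sdhb, Sdhc and Sdhd. Of 98 names that matched, 6 names marked as pseudogenes (-ps) were left out, and 92 genes remained of 52605 gene symbols in the files. They were 36 complex I subunits (7 core and 29 accessory), 7 complex I assembly factors of the Ndufaf family, 4 subunits of complex II, 8 of complex III, 20 genes of complex IV with Ndufa4 and Ndufa4l2, and 17 Atp5 genes of complex V. Among the Atp5 genes, Atp5s and Atp5sl are factors outside the enzyme and not subunits of it.

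The libraries were made from 146 germ cells of female C57/BL6J pups at D0.5. The 5 ovaries, from pups of 1 litter, were digested before single oocytes were picked under the microscope and processed by Smart-seq2 with ERCC spike-in RNA. The study asked how germ cells differ at the time when cysts break down and primordial follicles form. No label ties a cell to an animal, so the cells form 1 sample without replicates, and no value carries a test. The reads that could be assigned to genes numbered 9487369 in the median cell, with extremes of 1408459 and 26855273. A single cell, listed at 0 TPM of the germ cell gene Ddx4, was left out, and the others had at least 7.49 TPM of Ddx4. TPM, an abundance scaled to the total of the cell, is a level per transcript length, so levels of different genes can be compared as far as the transcript lengths behind it are right.

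Electrons from NADH enter at complex I and those from succinate at complex II. Both pass through ubiquinone to complex III, through cytochrome c to complex IV and on to oxygen, while complexes I, III and IV pump protons that drive the ATP synthase, complex V. Complex II is encoded wholly in the nucleus, whereas each of the others also holds subunits from mitochondrial DNA. Several complex IV subunits and the ring subunit of complex V come from more than 1 nuclear gene, with forms used mainly in heart and skeletal muscle, lung or testis. Mouse oocytes rest in meiotic prophase at this age and rely on mitochondria that they pass to the next generation.

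NRF1 and GABPA are factors known to act on respiratory genes, so the sequences upstream of the members were searched for the core letters of their sites. Of the 92 genes, 76 were matched to the RefSeq promoter table (GRCm38.p6). Within 250 bases before the start, the letters CGCATGCG of the NRF1 site, which read the same on both strands, occurred in 8 of the 76 members (10.5%) and in 1.75% of the 27025 genes of the table. The letters CCGGAAG of the ETS site bound by GABPA, searched on both strands, occurred in 13 members (17.1%) and in 7.83% of all genes. Matches of the 2 motifs do not overlap in the promoters printed here, and a match is a description of the sequence, not of binding. Both were present in Atp5j, Atp5l and Cox6a1. The promoters of Cox6a1, with both motifs, of Cox8a, whose level was higher in each later cluster, and of the pair Cox6b1 and Cox6b2 are shown 5′ to 3′ along the gene, with motif letters in capitals.
Cox6a1: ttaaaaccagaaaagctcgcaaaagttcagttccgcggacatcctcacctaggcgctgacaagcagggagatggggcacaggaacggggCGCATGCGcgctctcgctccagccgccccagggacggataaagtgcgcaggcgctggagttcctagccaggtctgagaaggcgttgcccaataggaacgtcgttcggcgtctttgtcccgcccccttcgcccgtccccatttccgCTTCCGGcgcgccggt
Cox8a: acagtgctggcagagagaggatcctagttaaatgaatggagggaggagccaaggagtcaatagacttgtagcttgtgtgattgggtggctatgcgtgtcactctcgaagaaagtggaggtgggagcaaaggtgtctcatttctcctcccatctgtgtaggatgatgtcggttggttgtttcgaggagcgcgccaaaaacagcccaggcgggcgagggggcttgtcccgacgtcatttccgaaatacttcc
Cox6b1: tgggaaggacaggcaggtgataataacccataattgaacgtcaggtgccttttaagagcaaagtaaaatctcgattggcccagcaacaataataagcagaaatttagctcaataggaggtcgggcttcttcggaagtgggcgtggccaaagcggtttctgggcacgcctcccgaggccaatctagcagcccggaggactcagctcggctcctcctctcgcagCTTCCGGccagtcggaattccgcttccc
Cox6b2: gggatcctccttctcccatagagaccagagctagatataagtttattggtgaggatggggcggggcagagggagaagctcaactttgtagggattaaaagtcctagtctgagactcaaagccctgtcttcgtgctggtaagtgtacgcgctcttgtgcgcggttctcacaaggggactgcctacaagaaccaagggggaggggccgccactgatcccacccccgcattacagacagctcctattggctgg
All of these lie on the minus strand, at chr5:115348959-115349208 (Cox6a1), chr19:7217617-7217866 (Cox8a), chr7:30626115-30626364 (Cox6b1) and chr7:4753095-4753344 (Cox6b2). In Cox6a1 the NRF1 letters began 161 bases and the ETS letters, on the opposite strand, 16 bases before the RefSeq start. In Cox6b1 the ETS letters began 28 bases before the RefSeq start. The GENCODE M21 genes begin further upstream, at chr5:115348981 and chr7:30626151, so both ETS matches lie inside them. Neither motif was found in the windows of Cox8a and Cox6b2.

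Transcripts of the respiratory genes were present in nearly every cell. Of the 92 members, 76 reached 1 TPM in at least 90% of the cells kept, among them all 36 complex I subunits and all of complexes II and III. The 16 others were 8 complex IV genes, 6 of the 7 complex I assembly factors, Atp5s and Atp5sl. Summed over all members, the level was 31701 ± 9840 TPM per cell (SD over cells), from 4859 to 66037 with a median of 31147. Complex I subunits made up 37.7% ± 3.54 of that sum (mean and SD over cells), complex IV 27.8% ± 3.74, complex V 22.1% ± 3.10, complex III 8.91% ± 1.89, complex II 2.37% ± 1.28 and the assembly factors 1.11% ± 0.622. These shares depend on the level and the number of the genes of each complex, and on the scale: with CPM, which is not divided by length, complex II made up 6.17%, the assembly factors 2.89%, complex IV 19.7% and complex V 27.3%.

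In complex I, Ndufc1, a small membrane subunit, had the highest mean at 961 TPM, followed by Ndufab1, the mitochondrial acyl carrier protein, at 822 TPM. Ndufa11, a subunit of the membrane arm, had the lowest mean at 34.7 TPM. The length behind the TPM of Ndufa11, read from its TPM and reads, was 2661 bases, beside 918 bases for its longest annotated transcript, and its rank rests on that length. Among 90 members with a length read in this way, it was the only one with a median over cells above the longest annotated transcript. The median of Ndufv3, at 489 bases, was just below its shortest annotated transcript of 493 bases. The 7 core subunits, which carry the flavin and iron-sulfur clusters, ranged from 108.8 TPM for Ndufs8 to 503 TPM for Ndufs3. Complex II genes had similar means, at 221 TPM for Sdha, 167 TPM for Sdhc, 166 TPM for Sdhb and 149 TPM for Sdhd, and their ranges over cells overlapped.

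In complex III, Uqcrb and Uqcrq, small subunits near the quinone-binding side, had means of 823 and 764 TPM, and Uqcrfs1, the Rieske iron-sulfur protein, was lowest at 59.8 TPM. The single highest means were in complex IV. Cox4i1, the common form of subunit IV, had a mean of 1627 TPM, and Cox5a, which binds next to it, had 1408 TPM. In complex V, Atp5b, the catalytic beta subunit, had a mean of 1065 TPM and Atp5h, a subunit of the peripheral stalk, 947 TPM. The lowest there was Atp5j2, subunit f of the membrane part, at 22.8 TPM.

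**Figure D1:**
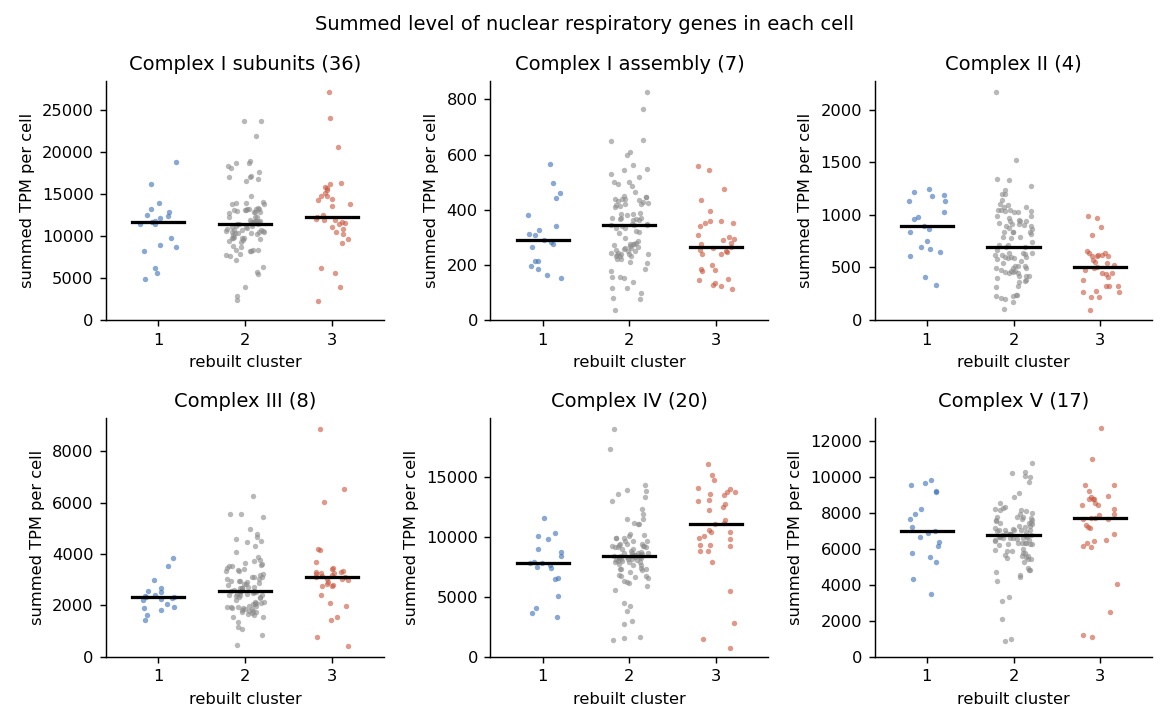
Summed TPM per cell (vertical axes, linear, from 0) of the genes of each complex in the rebuilt clusters 1, 2 and 3 of 19, 93 and 33 cells; points are cells and bars are medians. The median of complex II falls from 897 to 507 TPM between clusters 1 and 3, while that of complex IV goes from 7846 to 11117 TPM, and a few cells lie far below the others in clusters 2 and 3.

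Cells were grouped by 20 oocyte and meiosis genes, none of them a respiratory gene, into 3 clusters numbered so that Sycp2, Stag3 and Taf7l, genes of meiosis and early germ cells, were high in cluster 1. The rebuilt clusters held 19, 93 and 33 cells. These sizes differ from those of the published clusters, so some cells were grouped differently. Median Ddx4 fell along them, at 339, 201 and 98.2 TPM. The log2 ratio of mean TPM plus 1 was taken from each cluster to the next, and a ratio of at least 1.5-fold (0.58 on the log2 scale) is called higher or lower, with no statistical test behind it. All 3 clusters come from the same litter, and both steps use the cells of cluster 2.

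The summed level of all members differed little between clusters, with medians of 30867, 30328 and 35247 TPM in clusters 1, 2 and 3. Of 90 members with a mean of at least 1 TPM, 11 were higher and 2 lower in cluster 2 than in cluster 1, against 24.9% and 21% of the 11759 coding genes tested. With means of log2 values these were 7 and 14, against 15.5% and 27.1%, and leaving out 1 cell gave up to 17 higher (without cell 36) or 5 lower. From cluster 2 to cluster 3, 14 were higher and 11 lower, against 16.7% and 30.4% of coding genes. On this scale the share of members called was below that background in each direction and step. Per spike-in TPM, 68 members were higher in the second step, against 49.7% of coding genes. Median ratios of the members were 0.16 in both steps, beside 0.01 and -0.22 for all coding genes tested. As differences of mean log2 values, the second-step medians were 0.13 for members and 0.11 for coding genes.

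On the TPM scale the classes differed in direction. From cluster 2 to cluster 3 the median ratio was 0.38 in complex IV, 0.26 in complex I accessory subunits, 0.27 in the stalk, membrane and other Atp5 genes of complex V and 0.15 in complex III. It was -0.35 in complex I core subunits, -0.40 in the F1 head of complex V, -0.17 in the assembly factors and -0.71 in complex II. From cluster 1 to cluster 2 the medians of complex IV and of complex II were 0.46 and -0.22, the latter taking both signs under 17 alternatives, from -0.56 to 0.47. Under these alternatives, the medians of complex IV stayed above 0, between 0.14 and 0.52 in the first step and between 0.28 and 1.34 in the second. In the second step the accessory subunits (0.14 to 1.21) and the stalk, membrane and other Atp5 genes (0.16 to 1.26) also stayed above 0. The medians of complex II (-0.99 to 0.16), the core subunits (-0.58 to 0.63), the F1 head (-0.76 to 0.54), the assembly factors (-0.40 to 0.71) and complex III (-0.03 to 1.12) took both signs. Per spike-in TPM all 8 class medians of the second step were above 0, from 0.16 in complex II to 1.34 in complex IV, where the median of all coding genes was 0.58. The assembly factors also had a median above 0 with CPM (0.05) and with means of log2 values (0.66). Complex II made up 3.07%, 2.47% and 1.68% of the members' sum in clusters 1, 2 and 3 (means over cells), and complex IV 25.4%, 27.6% and 29.8%.

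**Figure D2:**
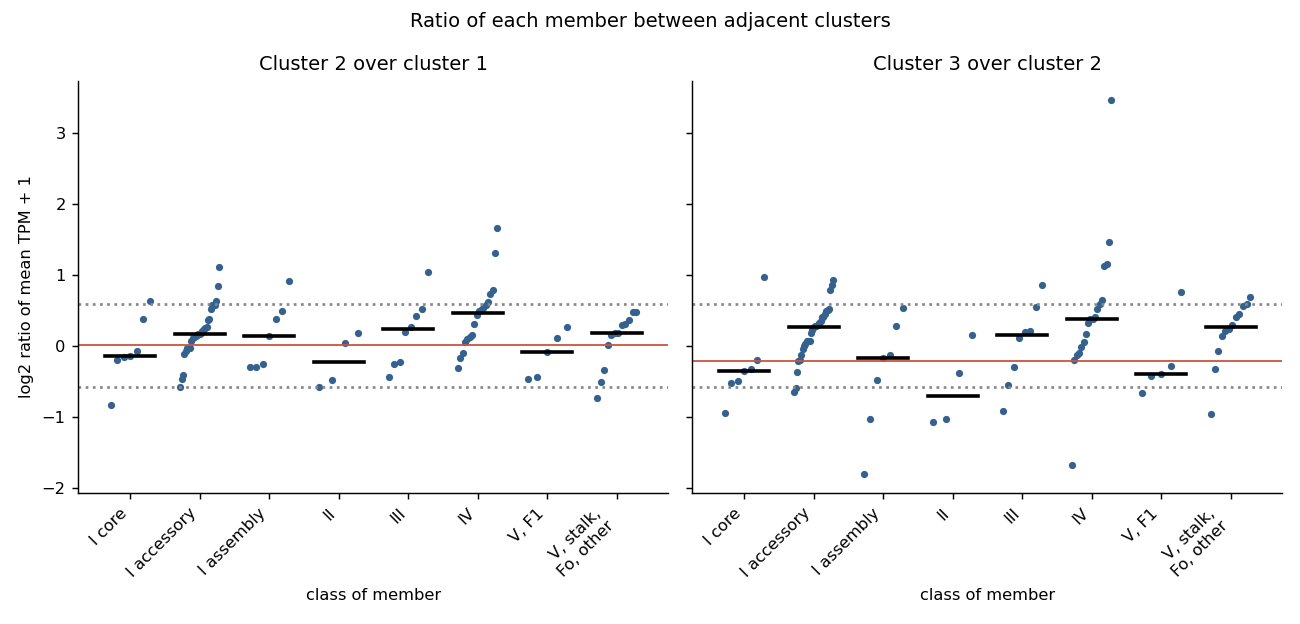
Log2 ratio of mean TPM plus 1 (vertical axis) of each of 90 members, by class, for cluster 2 over cluster 1 (left) and cluster 3 over cluster 2 (right). Black bars are class medians, dotted lines mark 1.5-fold and the red line is the median of 11759 coding genes. On the right the medians of complex II (-0.71), the F1 head (-0.40) and the complex I core (-0.35) lie below that line. Those of the other classes lie above it, with complex IV (0.38) the highest.

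Among the complex I core subunits, Ndufs8, an iron-sulfur subunit on the way to ubiquinone, went against the others in the second step. It had a median of 51.2 TPM in cluster 1 (0.109 to 245), 69.9 TPM in cluster 2 (0 to 727) and 187 TPM in cluster 3 (0 to 480), and the ranges overlapped. Its ratios were 0.63 and 0.97. The first fell inside 1.5-fold under 2 of the 17 alternatives, down to 0.50, and when any of 6 single cells was left out, down to 0.52, while the second kept its size under all 17. Of the 7 core subunits it was the only one above 0 in the second step, where the median of the core subunits was 0.63 per spike-in TPM. Ndufs1, the largest iron-sulfur subunit, had medians of 133.2 TPM (39.9 to 537), 120 TPM (0.243 to 322) and 62.5 TPM (0.227 to 241), with ratios of -0.83 and -0.52, the second being -0.96 with CPM and 0.26 per spike-in TPM. With clusters from variable genes its first ratio was -0.05, and with 3 equal bins of the order -0.28. Ndufv1, the subunit that binds the flavin and oxidises NADH, had a ratio of -0.94 from cluster 2 to cluster 3 and means of 324, 309 and 160 TPM. Per spike-in TPM that ratio was 0.0013.

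Of the 29 accessory subunits, 3 were higher in each step, against 24.9% and 16.7% of coding genes, and none was lower in the first, against 21%. Ndufb2, a small subunit of the membrane arm, had medians of 29.1 TPM in cluster 1 (7.15 to 93.8), 51.9 TPM in cluster 2 (0.232 to 491) and 127.8 TPM in cluster 3 (2.59 to 419), with ratios of 1.11 and 0.93. Its lower cells in cluster 3 reached into the range of cluster 1. Ndufb3, its neighbour in the same arm, had medians of 87.3, 171 and 230 TPM and ratios of 0.84 and 0.40. Its first ratio fell inside 1.5-fold under 3 of the 17 alternatives, to 0.40 without the cells with somatic markers. Ndufb10, of the same arm, had a first ratio of 0.63, which held under 12 of the 17 alternatives and ended when 1 single cell was left out. Ndufs4, an accessory subunit next to the NADH site, had medians of 357, 289 and 330 TPM, and its first ratio of -0.58 was just inside 1.5-fold. Ndufc1 had a first ratio of 0.17, and Ndufab1 had ratios of 0.16 and 0.32. Ndufa1 and Ndufa9 were lower in the second step, at -0.65 and -0.59. Per spike-in TPM these turned to 0.25 and 0.47, and the call of Ndufa9 held under 7 of the 17 alternatives and ended when any of 56 single cells was left out. Ndufb4 and Ndufv3 were higher, at 0.85 and 0.79, and the call of Ndufv3 held under all 17.

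The assembly factors also split. Ndufaf1, which helps to build the membrane arm, had medians of 93.3 TPM in cluster 1 (4.76 to 267), 69.3 TPM in cluster 2 (0 to 357) and 20.6 TPM in cluster 3 (0 to 81.4), and its second ratio of -1.81 was the lowest among the members. Ndufaf7, which methylates a core subunit, was lower as well, at -1.03, and at -0.20 per spike-in TPM. Ndufaf4, another assembly factor, rose in the first step, with medians of 36.6 TPM (0 to 149), 74.9 TPM (0 to 471) and 113.4 TPM (3.89 to 376) and ratios of 0.92 and 0.53. With 3 equal bins of the order its first ratio was 0.47, inside 1.5-fold.

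In complex II, 2 of the 4 genes fell from cluster 2 to cluster 3, against 30.4% of coding genes. Sdha, the flavoprotein that oxidises succinate, had medians of 338 TPM in cluster 1 (67.8 to 534), 219 TPM in cluster 2 (0 to 1039) and 73.8 TPM in cluster 3 (7.0 to 426), with ratios of -0.48 and -1.03. Sdhd, one of the membrane anchors, had medians of 222 TPM (30.6 to 572), 125 TPM (0 to 809) and 57.9 TPM (0 to 311), with ratios of -0.58 and -1.07. Most cells of cluster 3 lay below the median of cluster 1 for both genes, although the ranges overlapped. Sdhb, the iron-sulfur subunit, had medians of 167, 167 and 137.6 TPM and a second ratio of -0.38, and Sdhc, the other anchor, 128.8, 161 and 187 TPM and a second ratio of 0.15. Both stayed inside 1.5-fold in each step. Dividing by spike-in TPM took the second-step median over coding genes from -0.22 to 0.58. On that scale the second ratios of Sdha and Sdhd were -0.21 and -0.23.

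In complex III, Uqcrq had medians of 286 TPM in cluster 1 (92.2 to 848), 581 TPM in cluster 2 (0.459 to 2307) and 1060 TPM in cluster 3 (0 to 4584). Its ratios of 1.04 and 0.86 were past 1.5-fold in both steps. Uqcrb had medians of 709, 722 and 912 TPM with ratios of 0.20 and 0.19. Uqcrfs1 had ratios of -0.44 and -0.30. Uqcrc1, a core subunit on the matrix side, had means of 575, 482 and 254 TPM and was lower in the second step, at -0.92, and at -0.05 per spike-in TPM.

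Of the 18 complex IV genes tested, 5 were higher in the first step and 6 in the second, against 24.9% and 16.7% of coding genes. None was lower in the first step and 1, Cox7b2, in the second, against 21% and 30.4%. The higher calls include Cox6a2 in the first step and Ndufa4l2 in both, which reached 1 TPM in only 9 and 10 cells. They also include Cox8c in the second step, whose call ended when any of 75 single cells was left out. Cox8a, the common form of the small subunit VIII, had medians of 144.1 TPM in cluster 1 (33 to 400), 246 TPM in cluster 2 (0 to 955) and 670 TPM in cluster 3 (44.3 to 1151), with ratios of 0.73 and 1.13. The first fell inside 1.5-fold under 3 of the 17 alternatives, down to 0.33, and the second under none. Cox6a1, the common form of subunit VIa, had medians of 725 TPM (240 to 1122), 975 TPM (2.00 to 3883) and 1758 TPM (67 to 2918), with ratios of 0.62 and 0.64. Both ratios of Cox6a1 fell inside 1.5-fold under 5 of the 17 alternatives, down to 0.22 and 0.36, and the first did so when any of 4 single cells was left out. The upper cells of cluster 3 lay above every cell of cluster 1 for both genes. Cox4i1 had medians of 1464, 1661 and 1706 TPM and ratios of 0.30 and -0.02, and Cox5a 1343, 1409 and 1429 TPM and ratios of 0.12 and -0.11. These 2 most abundant subunits stayed inside 1.5-fold in each step. Ndufa4, now counted as a complex IV subunit, had medians of 769, 823 and 1195 TPM and ratios of 0.15 and 0.52. Cox4i1 shares 5986 bases with the gene model Gm20388, so its reads could be split by the counting.

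In complex V, Atp5f1, subunit b of the peripheral stalk, had medians of 1501 TPM in cluster 1 (834 to 2496), 803 TPM in cluster 2 (0 to 3019) and 441 TPM in cluster 3 (95.7 to 930). Clusters 1 and 3 overlapped only between 834 and 930 TPM. Its ratios were -0.74 and -0.95, and 0.08 in the second step when divided by the spike-in TPM. With clusters from variable genes the first was -0.34, inside 1.5-fold. The gene overlaps Wdr77 on the other strand over 731 bases, and Wdr77 had means of 156, 111.3 and 39.5 TPM. The libraries do not mark strand and the part of Wdr77 in the result was not tested. Atp5b had medians of 1419, 1126 and 745 TPM and ratios of -0.46 and -0.40, the second turning to 0.59 per spike-in TPM, and Atp5a1, its partner in the F1 head, was lower in the second step at -0.66 and turned to 0.32 per spike-in TPM.

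Atp5e, the smallest F1 subunit, had means of 601, 719 and 1218 TPM and rose in the second step, with a ratio of 0.76. Atp5o, of the peripheral stalk, had a second ratio of 0.59, which held under 10 of the 17 alternatives and ended when any of 27 single cells was left out. Atp5h had medians of 752, 866 and 1205 TPM and ratios of 0.01 and 0.29, the second being -0.08 as a difference of mean log2 values. Atp5j2 had medians of 7.72, 10.0 and 16.1 TPM and ratios of 0.18 and 0.24.

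Isoforms were compared by their share of the summed TPM of their group over all cells. Forms used mainly in heart and skeletal muscle had low levels. Cox6a2 made up 0.103% of Cox6a1 and Cox6a2 together and reached 1 TPM in 9 of the cells kept (6.21%, exact 95% interval 2.88 to 11.5, counting error only). Cox7a1 made up 0.0345% of the Cox7a group and reached 1 TPM in 11 cells (7.59%, 3.85 to 13.2). Cox8b was listed at 0 in every cell, which allows, at this depth, up to 2.51% of cells with a detected transcript and sets no limit on cells that express the gene below detection. Ndufa4l2, a form induced by low oxygen, made up 0.225% of its pair and reached 1 TPM in 10 cells (6.90%, 3.36 to 12.3). Their ratios between clusters rest on these few cells: without cell 15, at 130.9 TPM, the first ratio of Cox6a2 went from 0.78 to -0.48, and without cell 21, at 93.7 TPM, the second ratio of Ndufa4l2 went from 1.16 to 0.15. Ndufa4l2 also shares 32 bases with Shmt2 on the other strand, whose means were 12.4, 34.6 and 76.9 TPM, and its part was not tested. The muscle genes Myh6, Myh7, Ckm and Actc1 together had medians of 0.109, 0.0629 and 0.0993 TPM in clusters 1, 2 and 3 and reached at most 64.1 TPM.

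Cox4i2, the form of subunit IV known from lung and from responses to low oxygen, was detected mainly in cluster 3. The gene lies at chr2:152754173-152765037 on the plus strand (mm10). It reached 1 TPM in 1 of 19 cells of cluster 1 (5.26%, 0.133 to 26), in 15 of 93 of cluster 2 (16.1%, 9.32 to 25.2) and in 31 of 33 of cluster 3 (93.9%, 79.8 to 99.3). Its median was 0 TPM in clusters 1 (0 to 42) and 2 (0 to 176) and 76.8 TPM in cluster 3 (0 to 456). The ratio from cluster 2 to cluster 3 was 3.46, the highest of all members, and stayed between 3.28 and 4.77 under the 17 alternatives. The first ratio of 1.66 rests on a single cell of cluster 1 and was 3.32 without it (cell 65). With means of log2 values the first ratio was 0.57, inside 1.5-fold. Cox4i1 was the main form, while Cox4i2 made up 0.164%, 0.544% and 6.28% of the pair in clusters 1, 2 and 3.

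In 2 cells Cox4i2 made up over 50% of the pair. These were cells 12 and 14, with 2.13 and 0 TPM of Cox4i1 and 31.8 and 50.2 TPM of Cox4i2. They also had the lowest sums over all members, at 4859 and 5571 TPM, and 24.1% and 27.3% of their TPM on mitochondrial genes, beside a median of 9.26% over cells. Cells 67, 10 and 7 also had sums under 10000 TPM, and the next lowest cell had 12851 TPM. Without these 5 cells the second ratio of Cox4i2 stayed past 1.5-fold.

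Cox6b2, the testis form of subunit VIb, was the larger part of its pair, at 57.2% of Cox6b1 and Cox6b2 over all cells. It reached 1 TPM in 120 cells (82.8%, 75.6 to 88.5). Its medians were 20.8 TPM in cluster 1 (0 to 215), 20.4 TPM in cluster 2 (0 to 429) and 103.4 TPM in cluster 3 (0 to 533), with ratios of 0.57 and 1.46. Cox6b1, the common form, had medians of 23, 40.8 and 58.3 TPM and ratios of 0.49 and 0.41. The share of Cox6b2 was 48.8%, 50.4% and 68% in clusters 1, 2 and 3, and it was over 50% in 7 of 19, 32 of 92 and 23 of 32 cells with at least 10 TPM of the pair. The median share of a single cell was lower than these pooled shares, at 33.8%, 29.2% and 61.7%.

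Cox8c and Cox7b2, which are also known from the testis, showed other patterns. Cox8c reached 1 TPM in 94 cells (64.8%, 56.5 to 72.6) and had medians of 95 TPM (0 to 372), 29 TPM (0 to 1395) and 106.1 TPM (0 to 438). It made up 36.2%, 21.6% and 16% of the Cox8 group in clusters 1, 2 and 3. Its ratios were -0.30 and 0.59, and the second fell below the size of a call when any of 75 single cells was left out. They were -2.02 and 2.27 as differences of mean log2 values, -0.88 and 2.00 per spike-in TPM and 0.84 and 0.51 with clusters from variable genes. Cox7b2 reached 1 TPM in 72 cells (49.7%, 41.3 to 58.1) and had medians of 0 TPM (0 to 159), 31.4 TPM (0 to 349) and 0 TPM (0 to 182). Its second ratio was -1.68 and its share of the pair with Cox7b was 22.0%, 26.9% and 9.72%. Cox7b had medians of 164, 133.4 and 143.8 TPM and ratios of 0.05 in both steps. With CPM the ratios of Cox7b were 0.67 and 1.01, and per spike-in TPM -0.42 and 0.97.

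**Figure D3:**
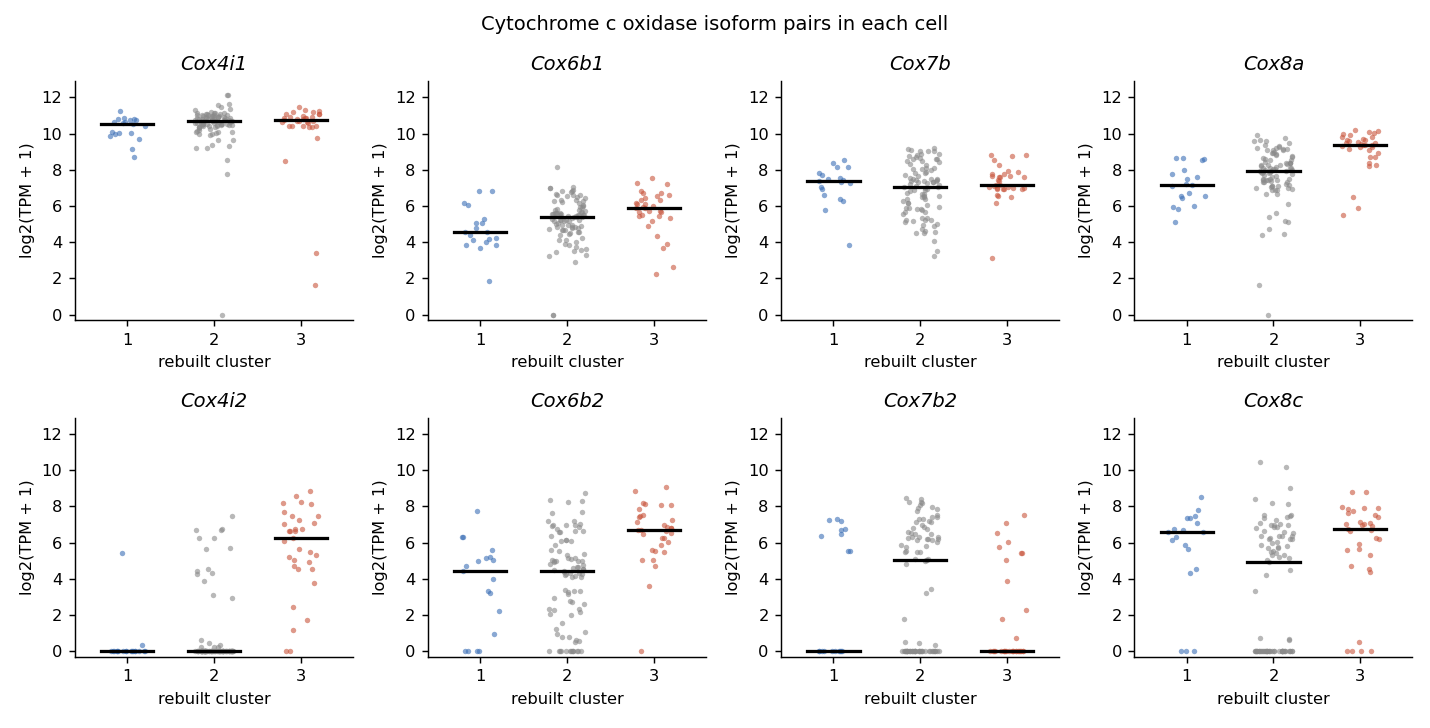
Log2(TPM + 1) in each cell of 4 pairs of complex IV isoforms, with the common form above and the other form below, in rebuilt clusters 1, 2 and 3; bars are medians. Cox4i2 is at 0 in most cells of clusters 1 and 2 and reaches 1 TPM in 31 of 33 cells of cluster 3, while Cox7b2 has a median of 0 there.

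Detection of Cox4i2, Cox6b2, Cox7b2 and Cox8c was spread over the cells. All 4 reached 1 TPM in 14 cells, of which 11 were in cluster 3, and none did in 7 cells, all in cluster 2. Cox4i2 and Cox7b2 were detected together in 17 cells, Cox4i2 alone in 30 and Cox7b2 alone in 55. Counting reads rather than TPM, which favours longer transcripts, moved the shares of these 4 forms by less than their SD over cells. That SD was wide, at 11.9, 31.2, 26.2 and 20.6 percentage points in the order named, so large shifts could pass this check.

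In the Cox7a and Atp5g groups, more than 1 form was common. Cox7a2 made up 64.9% and Cox7a2l, which helps to join complexes III and IV, 35.1% of the Cox7a group, but with estimated counts Cox7a2l was the larger form, at 58.9%. Cox7a2 had medians of 968, 842 and 1059 TPM with ratios of -0.10 and 0.33, and Cox7a2l had 465, 482 and 441 TPM with ratios of -0.18 and -0.21. The 3 genes for the ring subunit c of complex V, which encode the same mature protein, contributed 43.3% (Atp5g1), 7.87% (Atp5g2) and 48.8% (Atp5g3). Atp5g1 had medians of 357 TPM (229 to 597), 384 TPM (0 to 1562) and 760 TPM (0.337 to 1989) and a second ratio of 0.68, which came to 0.16 with clusters from variable genes and 0.51 with 3 equal bins of the order. Atp5g2 and Atp5g3 had second ratios of 0.55 and 0.21, inside 1.5-fold.

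Along the order of cells given by the first component of the 20 feature genes, the summed level of complex IV had a Spearman rho of 0.50 across the cells kept, complex III 0.42 and complex II -0.34. These values describe cells that share a litter and differ in depth, and carry no p. In 5 bins of 29 cells, 47 of the 90 members tested had their highest mean in the last bin (52.2%) and 15 in the first (16.7%), against 19.5% and 29.7% of the 11759 coding genes. Cox8a rose through the bins, with means of 161, 200, 324, 406 and 728 TPM, and Cox4i2 had means of 1.47, 0.648, 5.64, 29.5 and 120 TPM. Atp5f1 fell through them, at 1298, 1071, 777, 635 and 481 TPM. With an order from the most variable genes, made without members or feature genes, the rho of complex IV was 0.43, of complex III 0.33 and of complex II -0.46.

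**Figure D4:**
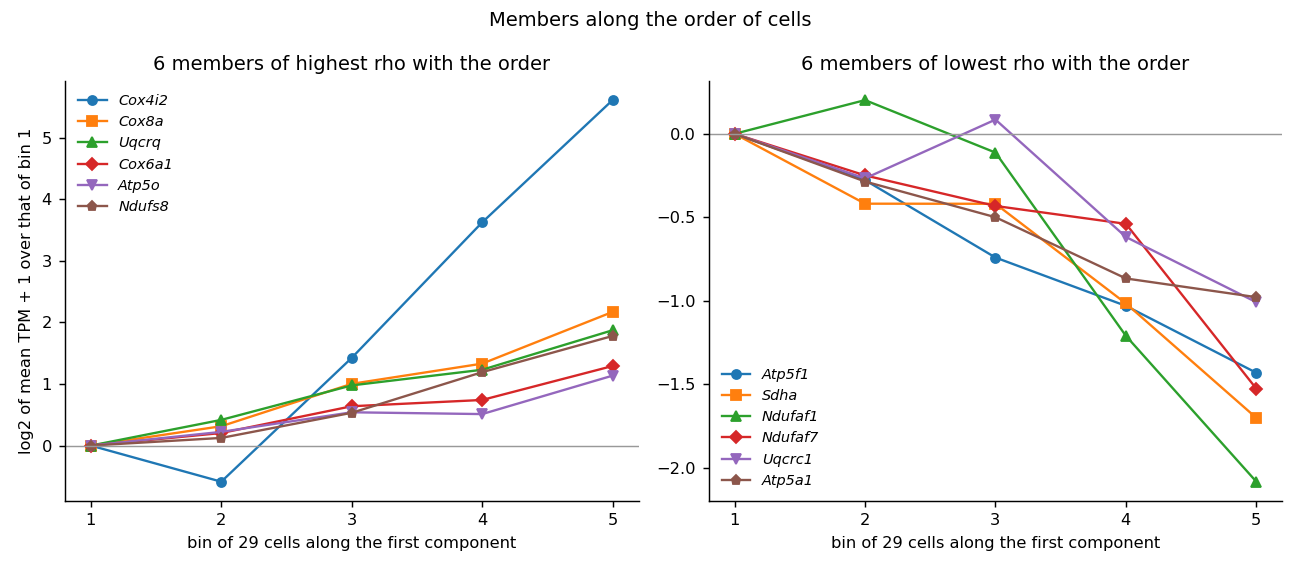
Log2 of mean TPM plus 1 relative to the first bin (vertical axes, which differ between the panels) in 5 bins of 29 cells along the first component, for the 6 members of highest and the 6 of lowest Spearman rho among those of at least 10 TPM. Cox4i2 departs from the others between bins 2 and 5, where its mean goes from 0.648 to 120 TPM, and Atp5f1 declines in every bin.

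The direction of members went with transcript length. Among 89 members with an annotated coding transcript, the Spearman rho of the ratio with the length of the longest one was -0.37 in each step. The 49 members of up to 1000 bases had median ratios of 0.30 and 0.29, and the 40 longer ones -0.08 and -0.20. Other coding genes showed the same order, with medians of 0.25 and 0.12 in 669 genes of up to 1000 bases and 0.00 and -0.23 in 10841 longer ones, although their rho with length was only -0.02 and -0.05. Within the members of up to 1000 bases rho was 0.06 and -0.06, and within the longer ones -0.10 and -0.02. The 5 members annotated at over 3000 bases had medians of 0.29 and 0.53. The lengths behind their TPM, read as for Ndufa11, were shorter, at 532 bases for Ndufab1, 606 for Atp5g1 and 618 for Ndufb2. For Sdhc and Ndufaf4 these lengths were 1731 and 1834 bases. After the median of other genes in the same range of annotated length was subtracted, the medians of all members were -0.02 and 0.10. In the second step the median of complex II was then -0.53 and that of complex IV 0.29.

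**Figure D5:**
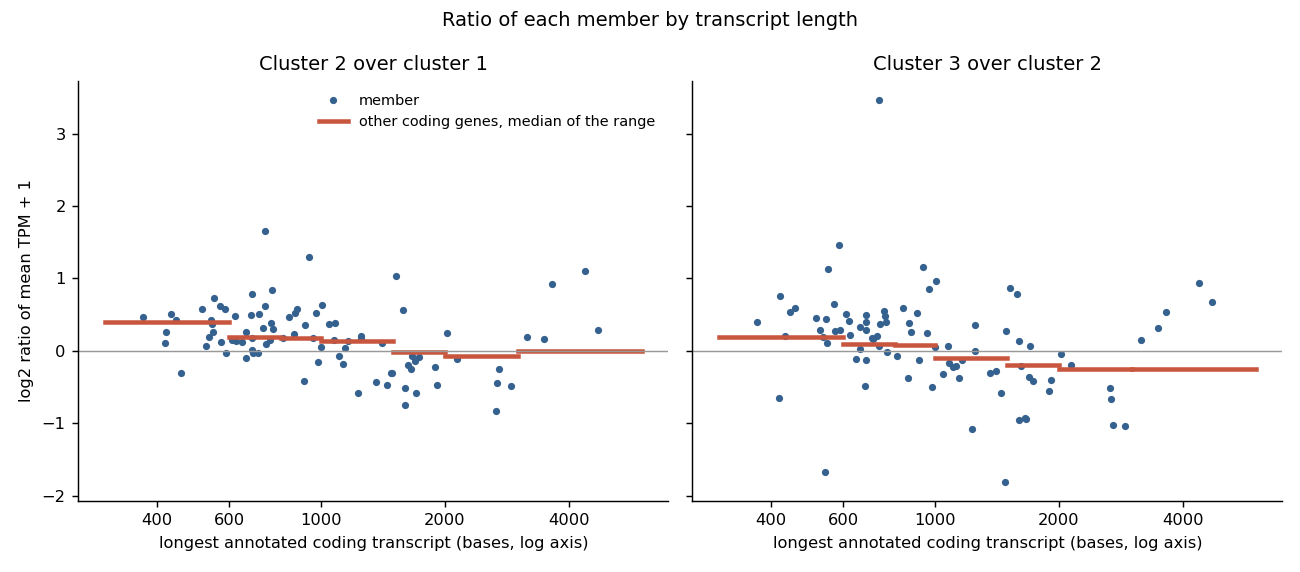
Log2 ratio of mean TPM plus 1 of each member (points) against the longest annotated coding transcript (bases, log axis) for both steps, with the median of other coding genes in each range of length (red lines). Members of up to 1000 bases have medians of 0.30 (left) and 0.29 (right), and longer ones -0.08 and -0.20.

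Spread over cells was smallest for the abundant subunits. Cox4i1 and Cox7a2 had the lowest coefficients of variation (SD over mean) of the 87 members of at least 10 TPM, at 0.41 and 0.43, and Cox4i2 and Cox8c the highest, at 2.35 and 1.8. For the 25 members between 500 and 2000 TPM the median was 0.50, beside 0.53 for 173 other coding genes of that range. Over 79 members of at least 50 TPM, the median rho of a pair was 0.23, beside 0.06 for pairs of 2915 other coding genes of 50 to 2000 TPM. These pairs share libraries, depth and the TPM total, and are given as a description. Pairs within a complex had a median of 0.30, with 595 of these 825 pairs coming from complex I. All other pairs, those with complex I assembly factors included, had a median of 0.20. Within complexes I and II the medians were 0.32 and 0.31, beside 0.24 and 0.13 with members of other complexes. In complexes III, IV and V they were 0.16, 0.21 and 0.10, below the 0.24, 0.23 and 0.21 with other complexes. The highest was 0.83, between Cox6a1 and Uqcrq, of different complexes, and the lowest was -0.50, between Atp5e and Sdha. Divided by spike-in TPM, the median over all pairs was 0.59.

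The 13 respiratory genes of mitochondrial DNA had a higher sum than the nuclear genes. The ratio of the members' sum to theirs had medians of 0.43, 0.36 and 0.44 in clusters 1, 2 and 3 and ranged from 0.0223 to 2.74 over cells. Of the 13, 5 were higher in the first step and 3 in the second, against 24.9% and 16.7% of coding genes, and none was lower, against 21% and 30.4%. mt-Nd2, a core subunit of complex I, had means of 886, 1798 and 3590 TPM and ratios of 1.02 and 1.00. Across cells, the rho between the members' sum and the share of mitochondrial TPM was -0.25, which is in part fixed because both share the total of the cell.

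Other genes of the pathway were taken from lists, and their ratios were taken on the TPM scale only, without the alternatives. Division by spike-in TPM, which took the second-step median over coding genes from -0.22 to 0.58, was not applied to them. Of 35 assembly factors outside the Ndufaf family, 7 were higher and 1 lower in the first step, and 6 higher and 6 lower in the second, against 24.9%, 21%, 16.7% and 30.4% of coding genes. For complex I, 3 of 6 were lower in the second step, namely Acad9 (-1.86), Foxred1 (-1.76) and Tmem126b (-0.90), and so were Atpaf1 (-1.0) and Atpaf2 (-1.44), which assemble the F1 head. Higher were Sdhaf4 (1.40), which guards free Sdha, with means of 158, 276 and 732 TPM, and Cox17 (0.70), which delivers copper to complex IV. Lyrm7, a chaperone of the Rieske protein, rose from 8.77 to 41 TPM in the first step (2.10). The other calls of at least 10 TPM were Ecsit (0.64), Sdhaf4 (0.80), Uqcc2 (1.65), Ttc19 (0.60), Cox19 (0.69), Surf1 (1.28) and Cox15 (-0.68) in the first step and Lyrm7 (0.77), Ttc19 (0.70), Coa3 (0.70), Coa7 (0.74) and Bcs1l (-0.84) in the second.

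By mean TPM, cytochrome c appeared mainly in its testis form, and its shares by estimated counts were not taken. Cyct had a mean of 181 TPM, while Cycs, the somatic gene, had 14.3 TPM and was lower in each step, at -0.71 and -0.99. Cyc1, cytochrome c1 of complex III, had 559 TPM and ratios of -0.05 and -0.04. Among the 12 regulators of respiratory genes and mitochondrial DNA, 10 had a mean of at least 1 TPM. From cluster 1 to cluster 2 Nrf1 (0.70), Pprc1 (0.74) and Tfam (0.88), and Esrra (1.17) at a mean of 2.22 TPM, were higher, and Gabpa (-0.59), Tfb1m (-0.71) and Tfb2m (-0.98) were lower, against 24.9% and 21% of coding genes. None of the 10 was called in the second step, against 16.7% higher and 30.4% lower.

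Cell identity and depth moved with the clusters to some degree. Summed germ cell markers had medians of 3460, 4502 and 2329 TPM in clusters 1, 2 and 3. Of 6 pregranulosa markers 1 and of 6 stroma markers 4 had a mean of at least 1 TPM, with median sums of 0.216 to 4.35 TPM. The highest of these sums, in cluster 1, came mainly from Nr2f2 (median 3.12 TPM), and Foxl2, Wt1, Kitl, Amhr2 and Fst had medians of 0 in each cluster. Haemoglobin and other blood or endothelial markers reached 165066 TPM in 1 cell of cluster 1. Spike-ins took medians of 1.04%, 1.22% and 0.674% of TPM, and genes with a read numbered 12424, 12207 and 14506. Leaving out the 25 cells of at least 1000 TPM of globins, or the 46 of at least 10 TPM of pregranulosa or stroma markers, gave 12 and 19 members higher (17.3% and 18.2% of coding genes) and 11 and 10 lower (30.5% and 30.3%) in the second step.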

How the data were processed

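RNA of 146 single germ cells was measured by Smart-seq2. Per the labels and the study's methods, the authors checked reads with FastQC and quantified them with Salmon against mm10 with spike-in sequences. The deposited values are TPM, scaled to 1 total per cell over all genes, mitochondrial genes and spike-ins included, and the estimated count of reads per gene, left by the authors without normalization. The annotation release is not given in the sources used here. Coding genes, coordinates and transcript lengths came from GENCODE M21 (mm10), and promoters from RefSeq (GRCm38.p6). For 73 of 90 members the deposited length was below that implied by TPM and reads, scaled on the spike-ins over values of at least 50 reads. Deposited lengths were not used.

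Cells were clustered anew with Seurat 5.3.0 under R 4.3.3, using 20 feature genes, the 19 that the study's text names for its clusters and Taf4b, which need not be the study's exact set, with 10 components and 20 neighbours, and the study's list of cells per cluster was not used. Means, log2 ratios with a pseudocount of 1 TPM over genes with a mean of at least 1 TPM, rank correlations (Spearman) and 95% intervals of shares (exact, Clopper-Pearson) were obtained with SciPy 1.17.1, NumPy 2.4.6 and pandas 2.3.3 under Python 3.11.15. Only the calculation of the log2 ratios had been tested on simulated counts. Intervals cover counting error only. Cells of 1 litter are not replicates, so the precision of a mean over animals is unknown and no test was made.

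Members and lists were chosen with earlier results of these data known. The genes named are the isoform groups, complex II, the 2 highest and the lowest subunits of each complex, the 4 largest ratios each way per step and the extremes of spread, and of other lists those past 1.5-fold with at least 10 TPM. Other members past 1.5-fold and Esrra were named after their values were seen. Alternatives were another pseudocount, CPM, other TPM totals, division by spike-in TPM, means of log2 values, other clusters, no filter on low genes, other sets of cells, each cell left out and a 2-fold size. Ratios of genes in the other lists, those of mitochondrial DNA included, were not run under them. Adjusting for transcript length, subtracting the median of all genes after division by spike-in TPM, and leaving out cells with low member sums, globins or somatic markers were chosen after seeing the data.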

Additional observations from a re-analysis of the deposited data

How the results depend on the processing

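Cells of 1 litter give no error over animals, and the counts of members called moved with several choices. In the first step, 11 members were higher and 2 lower. The number higher was 7 with means of log2 values, 7 after adjusting for transcript length, 17 with all 146 cells and 4 at 2-fold. The number lower was 8 per spike-in TPM, 14 with means of log2 values, 5 with 3 equal bins of the order, 5 after adjusting for length, 7 without cells with globins, 6 without cells with somatic markers and 0 at 2-fold. The share of coding genes was 14.7% higher and 9.67% lower at 2-fold, and in the other settings from 15.5% to 24.6% higher and from 21.1% to 28.2% lower. The median of members was -0.00043 per spike-in TPM and -0.0206 after adjusting for length. In the second step, 14 were higher and 11 lower. Per spike-in TPM these were 68 and 2 (49.7% and 9.78% of coding genes), with a median of 1.06, and 40 and 7 (23.4% and 22.4%) after subtracting the median of all genes. Clusters from the most variable genes gave 21 lower, against 28.8%, and a 2-fold size gave 4 higher and 5 lower, against 9.30% and 15%. With each cell left out in turn, 9 to 17 were higher (17 without cell 36) and 2 to 5 lower in the first step, and 12 to 15 higher and 10 to 12 lower in the second.

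Division by spike-in TPM turned the second step of complex II to 0.16, of the core subunits to 0.63, of the F1 head to 0.54, of the assembly factors to 0.71, of Atp5b to 0.59, of Atp5f1 to 0.0805, of Atp5a1 to 0.32, of Ndufa1 to 0.25, of Ndufa9 to 0.47, of Ndufs1 to 0.26 and of Ndufv1 to 0.0013. The first step of Cox6a2 was -0.0854 with means of log2 values, -0.21 with 3 equal bins of the order and from -0.48 to 1.27 with each cell left out, and that of Ndufa4l2 came to -0.0160 when variable genes formed the clusters and -0.70 with equal bins. Estimated counts gave Cox7a2l 58.9% of its group, and CPM gave shares of 2.89% for assembly factors, 6.17% for complex II, 19.7% for complex IV and 27.3% for complex V. Per spike-in TPM, the median rho was 0.59 over all pairs, 0.65 within a complex and 0.57 over the other pairs, those with assembly factors included. Of the 38 ratios of members past 1.5-fold, 11 stayed past it under all 17 alternatives, and 8 ended when some single cell was left out. The cause of these differences was not tested. No paired analysis was possible because no label ties a cell to an animal.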
